A study of Homo sapiens with 12 samples.

Results

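A set of 35 human genes for 2-oxoglutarate dioxygenases was followed across 12 RNA-seq libraries of a breast cancer line. The genes were chosen by symbol, as enzymes that remove methyl groups from histones, DNA or RNA together with their closest relatives, and each symbol was looked up in the deposited gene table. All 35 were found among 60664 genes listed, and all 35 passed the filter on low counts in every comparison. The label of demethylases does not cover the whole set. The 3 AlkB proteins ALKBH4, ALKBH6 and ALKBH7 and the 5 JmjC proteins JMJD4, JMJD6, KDM8, RIOX1 and RIOX2 are relatives that hydroxylate proteins or whose substrates are not settled, and they were kept as families of their own.

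These enzymes use molecular oxygen, ferrous iron and 2-oxoglutarate to hydroxylate or oxidise their substrates, and they release succinate and carbon dioxide. In the histone demethylases and the AlkB demethylases a hydroxyl group is placed on a methyl carbon, which then leaves as formaldehyde. JmjC-domain lysine demethylases act on methylated histone tails, TET enzymes oxidise 5-methylcytosine in DNA, and AlkB proteins such as ALKBH5 and FTO act on methylated bases in nucleic acids. Because oxygen is a substrate, their activity can fall when oxygen is scarce, and genes for several of them are known targets of hypoxia-inducible factor (HIF). RNA levels were measured here, and neither enzyme activity nor protein.

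The line was MDA-MB-231, a human triple-negative breast cancer line. Wild-type (WT) cells were left untreated in normoxia or cultured in hypoxia for 24 h, which the study's methods give as 1% oxygen, and cells knocked out for CCAR2 (CCAR2 KO), the gene of the nuclear protein DBC1, were left untreated in normoxia. Each of these 3 groups had 4 libraries, and no library of CCAR2 KO cells in hypoxia was analysed here. The knockout was made with a lentiviral CRISPR vector and 1 guide, and the methods do not say whether the cells were a clone. The methods call the RNA samples biological replicates but give a number other than 4, and no source used here says which cultures the 4 libraries of a group came from. The p-values therefore measure the spread between these libraries, which may be technical. In bulk RNA, a change in the make-up of the culture and a change in RNA per cell cannot be told apart.

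Values are CPM, a gene's counts scaled to a common library total after adjustment for library composition, given for replicates 1 to 4 of a group in that order. The counts of a library summed to 153904088 to 213743693 in WT normoxia, 76384973 to 195621872 in WT hypoxia and 68599412 to 152328450 in CCAR2 KO, and the members held between 64 and 36340 counts in a library. CCAR2 was at 144, 145, 146 and 151 CPM in WT normoxia, at 149, 143, 154 and 152 in hypoxia and at 54.7, 56.7, 61.3 and 58.5 in the knockout, so its RNA was lower but present in each knockout library. VIM, CD44, CAV1 and AXL were high in all 12 libraries while ESR1, PGR and CDH1 stayed below 0.5 CPM. ERBB2 and EPCAM had also been listed as low or absent in this line. Their levels are not reported here, so the marker profile of the line is covered only in part. Of markers of other cells, PTPRC, CD3E and ALB were at 0.236 CPM or less in every library, and PECAM1 was at 1.89 to 3.07 CPM in WT normoxia, 2.69 to 4.58 in hypoxia and 5.05 to 5.76 in the knockout. Replicate 2 of WT hypoxia stood apart from its group: its median deviation was -0.13 on the log2 scale for genes with a longest transcript of 5 kb or more and 0.13 for genes under 2 kb. Replicate 1 of WT normoxia deviated the other way, by 0.099 and -0.097. As 21 of the 35 members belong to the longer class, results that rest on these libraries are given without them too.

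The order of the members in untreated cells was read per length, as CPM per kilobase of annotated exon in WT normoxia, with the SD over 4 libraries. ALKBH5, an RNA demethylase of N6-methyladenosine (m6A), stood first at 42.4 ± 1.98 CPM per kilobase, and no library of another member reached its range. Next came ALKBH7, a mitochondrial AlkB protein, at 17.1 ± 1.99, the H3K4 demethylase KDM5C at 17.02 ± 1.04 and the H3K36 demethylase KDM2A at 16.2 ± 1.06, and the libraries of ALKBH7 overlapped those of KDM5C, which overlapped those of KDM2A. The median member stood at 4.04, and the H3K9 demethylase KDM3A at 3.90 ± 0.11 and KDM4B at 3.76 ± 0.23 were close to it.

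At the low end stood FTO at 1.06 ± 0.055, TET2 at 1.07 ± 0.11, KDM7A at 0.640 ± 0.083, KDM4C at 0.489 ± 0.050, KDM4D at 0.420 ± 0.038, HR at 0.261 ± 0.036 and TET1 at 0.125 ± 0.0081 CPM per kilobase. Within families the spread was wide. ALKBH5 and FTO act on the same RNA mark, and their levels did not overlap. KDM2A did not overlap KDM2B at 4.04 ± 0.13, and the TET genes were ordered TET3 at 2.59 ± 0.28, then TET2, then TET1 with no overlap among their libraries. Of the 34 pairs of neighbours in the whole order, 21 overlapped in their libraries. With the longest transcript as the length in place of the exon union, the median became 7.02, and KDM4B then stood above it at 9.70 and KDM3A below it at 5.99.

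**Figure D1:**
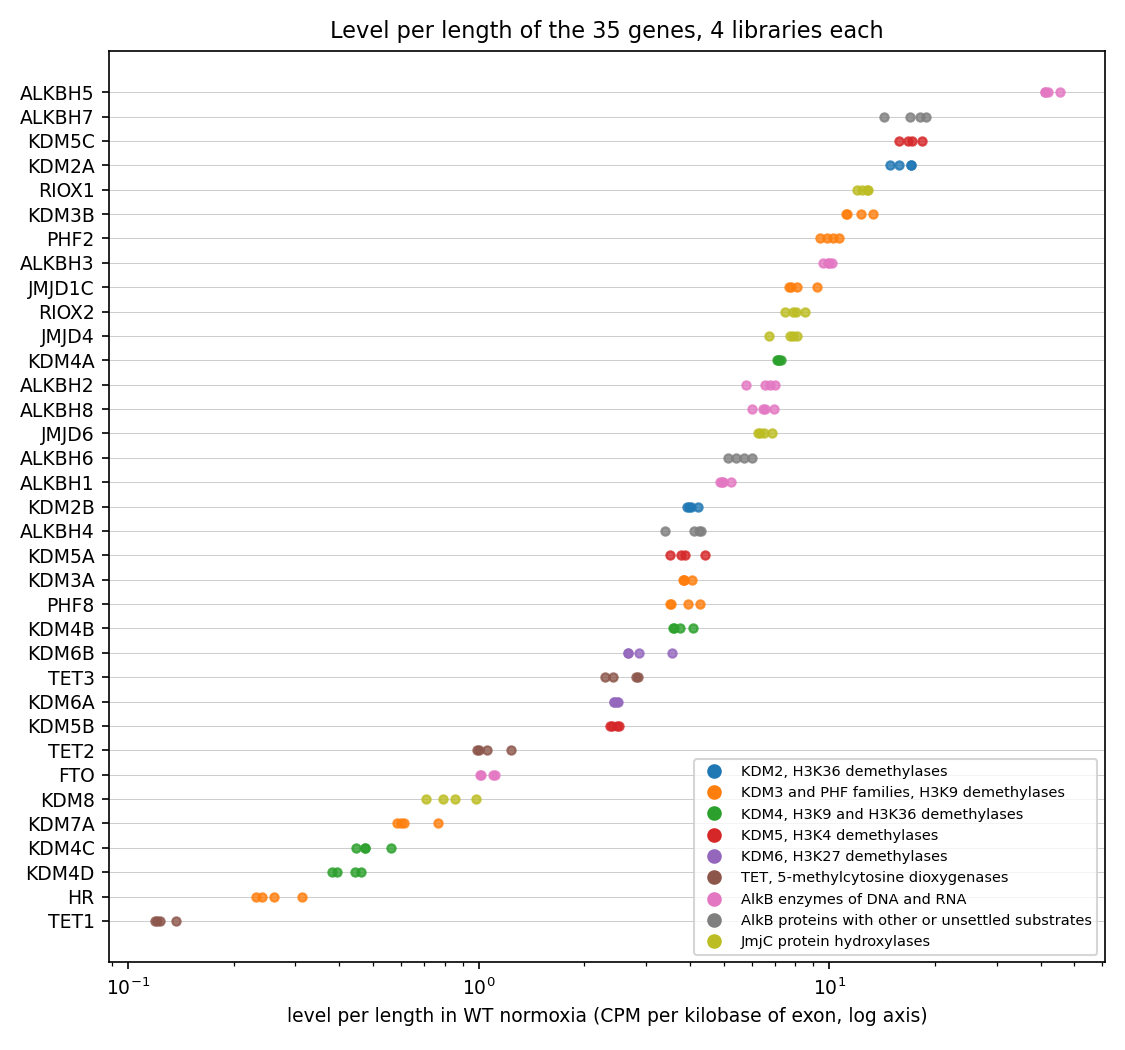
Level of each of the 35 genes in WT normoxia, in CPM per kilobase of exon on a log axis, with 1 point for each of 4 libraries and colours for families. ALKBH5 stands alone at the top near 42.4, most genes lie between 2 and 20, and TET1 is lowest at 0.13.

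To ask which of these genes respond to low oxygen, WT hypoxia was compared with WT normoxia. KDM3A, KDM4B and HR rose past the limits used for a call, an adjusted p below 0.05 with a log2 fold change of 0.5 or more in either direction. That is 3 of 35 members, or 8.57%, where 5.83% of the 21776 genes tested were called higher. No member was called lower by edgeR's quasi-likelihood test, by DESeq2 or by limma-voom, against 1.43% of all genes. At an unadjusted p below 0.05, 10 members were lower. For such unadjusted counts, here and below, no share of all genes is given. They therefore cannot show whether the listed genes differ from genes at large. By the adjusted p alone, 5 members were higher and 5 lower, where 11.6% and 12% of all genes were. Among genes with at least 10 counts in every library, 16.3% were higher and 14.6% lower, beside the same 5 and 5 members. With upper-quartile scaling, 5 were higher and 1, KDM6A, was lower, where 14.2% and 8.56% of all genes were. The lower count was 3 without replicate 3 or 4 of WT hypoxia or without replicate 1, 2 or 4 of WT normoxia. In those fits 8.17% to 9.39% of all genes were lower. The lower count was 7 without replicate 2 of WT hypoxia, where 16.2% of all genes were. KDM4A and KDM6A stayed among the lower members with any 1 library left out, while JMJD1C, ALKBH1 and ALKBH8 did not. The median log2 fold change of the members was -0.039, beside 0.011 for all genes tested, and it turned to 0.012 with upper-quartile scaling.

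**Figure D2:**
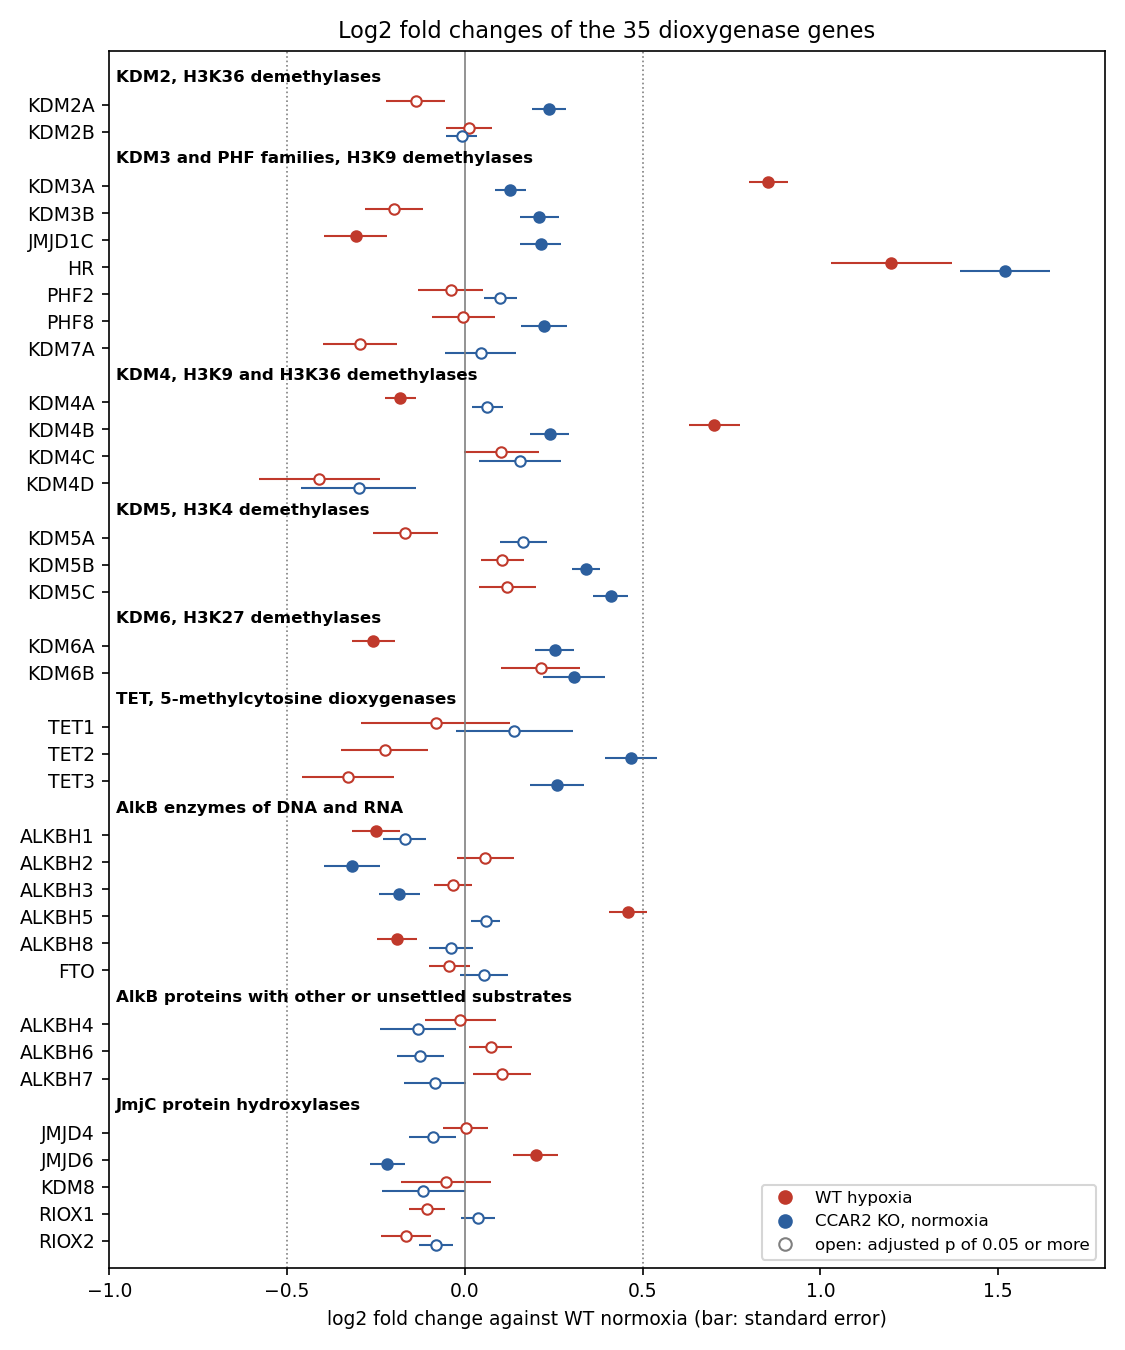
Log2 fold change of each gene in WT hypoxia (red) and in CCAR2 KO cells in normoxia (blue), each against the same 4 WT normoxia libraries, with standard errors and grouped by family. Filled points have an adjusted p below 0.05 and dotted lines mark the limit of 0.5; HR, KDM3A and KDM4B lie to the right of it in hypoxia, and HR in the knockout.

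Among the H3K9 demethylases, KDM3A (ENSG00000115548, chr2:86440647-86492716, plus strand, GRCh38) removes mono- and dimethylation from H3K9. Its level was 54.5, 51.7, 51.5 and 51.7 CPM in WT normoxia and 99.98, 88.9, 90.7 and 101 in hypoxia. Every hypoxia library was above every normoxia library, with a gap wider than the spread of either group. The log2 fold change was 0.85 ± 0.055 (standard error), a 1.81-fold rise, with an adjusted p of 4.62e-06. Its paralogs were not higher. KDM3B was at 106, 89.1, 88.5 and 98.1 CPM and then 89.00, 71.5, 89.1 and 84.8, with overlapping groups and a log2 fold change of -0.20 ± 0.081 (adjusted p = 0.106). With the replicate number in the fit, KDM3B was lower by the adjusted p (0.0358). JMJD1C, at 102, 84.8, 86.02 and 89.4 CPM, fell to 83.3, 62.6, 77.3 and 71.1, by the adjusted p alone, with a log2 fold change of -0.31 ± 0.089 (adjusted p = 0.0279).

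HR, which encodes hairless, a JmjC protein and nuclear receptor corepressor described as an H3K9 demethylase, was rare but rose. It was at 2.11, 2.29, 2.03 and 2.75 CPM in WT normoxia and at 4.87, 3.84, 6.47 and 5.99 in hypoxia. The groups did not overlap, and the hypoxia libraries varied more among themselves. The log2 fold change was 1.20 ± 0.17 (adjusted p = 0.000713). PHF2, PHF8 and KDM7A, the PHD-finger relatives, did not pass, at -0.039, -0.0048 and -0.29. The groups of KDM7A did not overlap. It was lower by the adjusted p with DESeq2 (0.0291) and with all 12 libraries in one fit (0.0403).

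In the KDM4 family, which acts on trimethylated H3K9 and H3K36, the members diverged. KDM4B (ENSG00000127663, chr19:4969113-5153595, plus strand) was at 52.6, 53.1, 55.3 and 60.2 CPM in WT normoxia and 91.05, 79.6, 93.5 and 98.04 in hypoxia. All 4 hypoxia libraries lay above the normoxia range, replicate 2 the lowest of them. The log2 fold change was 0.70 ± 0.071, with an adjusted p of 9.93e-05. KDM4A moved slightly the other way, from 37.7, 37.3, 36.7 and 36.96 CPM to 32.2, 33.1, 33.6 and 32.97. Its libraries were tight and did not overlap, and the log2 fold change of -0.18 ± 0.045 passed the adjusted p alone (0.0134). Exons of another annotated gene on the same strand or of its antisense gene cover up to 40.2% of the KDM4A exon union, and the use of strand is not stated, so reads of these genes cannot be told apart. KDM4C and KDM4D, the 2 rare ones, did not pass, at 0.10 ± 0.11 and -0.41 ± 0.17. With any 1 library left out, the log2 fold changes stayed at 0.83 to 0.88 for KDM3A, 0.67 to 0.75 for KDM4B and 1.09 to 1.32 for HR, and all 3 calls held.

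Of the enzymes of nucleic acids, ALKBH5 (ENSG00000091542, chr17:18183078-18209954, plus strand) moved most in hypoxia. It was at 131, 134, 131 and 145 CPM in WT normoxia and 192, 178, 194 and 184 in hypoxia, without overlap. Its log2 fold change of 0.46 ± 0.053 passed the adjusted p (0.000241) and stayed just under the limit on size. A gene on the opposite strand overlaps 11.2% of its exons. FTO, the other eraser of m6A, was between 21.6 and 23.8 CPM in normoxia and between 21.5 and 22.6 in hypoxia, and did not pass, with a log2 fold change of -0.043 ± 0.057 (adjusted p = 0.647). ALKBH1 and ALKBH8, a nucleic acid dioxygenase and a tRNA-modifying enzyme, fell by the adjusted p alone, at -0.25 ± 0.068 (0.0213) and -0.19 ± 0.056 (0.0291). ALKBH2 and ALKBH3, the repair enzymes for alkylated bases, did not pass. TET1, TET2 and TET3 did not pass either, at -0.082 ± 0.21, -0.23 ± 0.12 and -0.33 ± 0.13. TET3 was lower by the adjusted p with DESeq2 (0.0418) and with the replicate number in the fit (0.0202).

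In the remaining families few members passed. KDM6A, an H3K27 demethylase, fell by the adjusted p alone, from 17.8, 17.4, 17.7 and 17.3 CPM to 15.6, 13.9, 15.1 and 14.4, with no overlap. That was a log2 fold change of -0.26 ± 0.061 (adjusted p = 0.0104). Its paralog KDM6B did not pass at 0.21 ± 0.11. JMJD6, a lysyl hydroxylase of splicing proteins, was higher by the adjusted p alone at 0.20 ± 0.063 (0.041), and its groups overlapped. It did not pass in 6 of the 8 fits that left out 1 library. KDM2A and KDM2B did not pass at -0.14 ± 0.084 and 0.012 ± 0.066, nor did the KDM5 genes, between -0.17 and 0.12. The other JmjC relatives, among them RIOX1 and RIOX2, histidine hydroxylases of ribosomal proteins, and KDM8, lay between -0.17 and 0.0024, and ALKBH4, ALKBH6 and ALKBH7 between -0.013 and 0.10, and none of these passed. In all, 25 members did not pass, with log2 fold changes from -0.41 to 0.21 and adjusted p-values of 0.064 or more. Of these, RIOX2 and KDM4D were lower without replicate 2 of WT hypoxia, at -0.24 (adjusted p = 0.00402) and -0.54 (0.0263). KDM5C was then higher at 0.19 (0.0206). KDM6B was higher without replicate 4 of WT normoxia (0.0425).

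**Figure D3:**
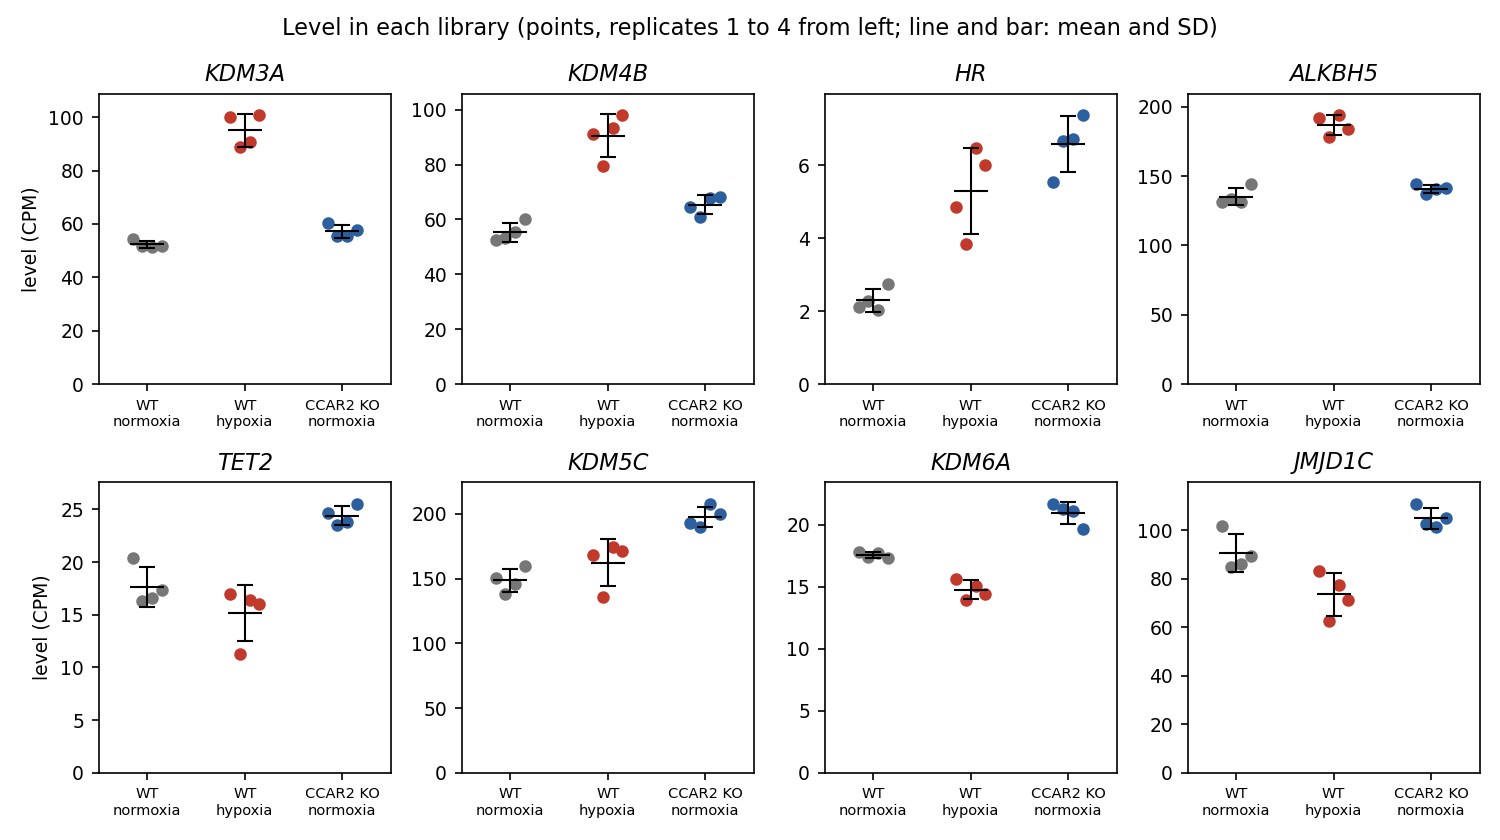
Level in CPM of 8 members in each of the 12 libraries, with 4 points a group, the mean as a line and the SD as a bar, on axes that start at 0. KDM3A, KDM4B and ALKBH5 are highest in hypoxia, HR is raised in both hypoxia and the knockout, and TET2, KDM5C, KDM6A and JMJD1C have their highest mean in the knockout.

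The promoters of KDM3A, KDM4B and ALKBH5, which passed the adjusted p in hypoxia with groups apart, are shown with those of the paralogs KDM3B and KDM4A, which did not rise, because the HIF-binding core is a short motif that can be searched by letters. The windows hold the 250 bases before the RefSeq gene start (GRCh38.p14), 5′ to 3′ on the plus strand, in lower case. The gene positions given above are GENCODE bounds and differ from RefSeq starts, so the KDM3A and ALKBH5 windows lie inside those bounds. Capitals mark each ACGTG or GCGTG on either strand, so that CACGT and CACGC are their reverse complements. A palindromic CACGTG counts once per strand.
KDM3A promoter, chr2:86441121-86441370, plus strand: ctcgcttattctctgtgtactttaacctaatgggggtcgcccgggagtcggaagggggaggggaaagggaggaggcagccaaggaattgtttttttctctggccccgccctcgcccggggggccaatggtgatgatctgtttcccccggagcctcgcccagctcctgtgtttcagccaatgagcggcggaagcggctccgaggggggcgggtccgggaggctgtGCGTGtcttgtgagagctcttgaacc
KDM4B promoter, chr19:4968863-4969112, plus strand: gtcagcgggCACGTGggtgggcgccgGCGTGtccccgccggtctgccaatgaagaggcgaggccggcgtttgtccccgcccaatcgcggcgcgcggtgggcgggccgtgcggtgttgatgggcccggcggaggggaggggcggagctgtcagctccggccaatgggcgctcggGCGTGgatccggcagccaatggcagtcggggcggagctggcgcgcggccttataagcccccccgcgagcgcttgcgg
ALKBH5 promoter, chr17:18183578-18183827, plus strand: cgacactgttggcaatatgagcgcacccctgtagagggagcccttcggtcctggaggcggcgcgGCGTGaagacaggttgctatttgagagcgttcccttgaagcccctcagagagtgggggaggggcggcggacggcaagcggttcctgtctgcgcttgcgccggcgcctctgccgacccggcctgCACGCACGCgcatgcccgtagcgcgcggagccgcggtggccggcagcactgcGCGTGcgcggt
KDM3B promoter, chr5:138352435-138352684, plus strand: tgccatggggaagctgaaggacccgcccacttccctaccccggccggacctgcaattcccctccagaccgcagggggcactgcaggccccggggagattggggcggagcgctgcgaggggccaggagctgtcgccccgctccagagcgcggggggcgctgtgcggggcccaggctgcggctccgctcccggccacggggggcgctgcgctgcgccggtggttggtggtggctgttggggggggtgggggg
KDM4A promoter, chr1:43649899-43650148, plus strand: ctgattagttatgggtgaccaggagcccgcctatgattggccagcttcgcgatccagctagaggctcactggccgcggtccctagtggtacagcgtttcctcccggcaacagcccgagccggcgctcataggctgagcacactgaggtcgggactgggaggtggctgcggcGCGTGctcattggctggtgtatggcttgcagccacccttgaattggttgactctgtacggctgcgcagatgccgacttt
The KDM3A window held 1 match, those of KDM4B and ALKBH5 held 4 each, that of KDM3B held 0 and that of KDM4A held 1. KDM3A had another gene start, and its window, which overlaps the one shown, also held 1 match. Windows were at hand for 31 of the 35 members, some with several gene starts, and not for HR, JMJD6, RIOX1 and RIOX2. Of these member windows, 27 of 46, or 58.7%, held at least 1 match, beside 43.2% of 35116 windows of all genes. Windows with 4 or more were 3.22% of all. KDM4C, KDM6A and TET3 each had a window with 5 matches, and none of them rose in hypoxia. A match is a stretch of letters and not a measured binding site.

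Other enzymes supply 2-oxoglutarate or remove it and its competitors, succinate, fumarate and 2-hydroxyglutarate. Among 16 of them, 2 were called higher in hypoxia, and 7 were lower at an unadjusted p below 0.05 without a call by edgeR's quasi-likelihood test, DESeq2 or limma-voom. IDH2, the mitochondrial isocitrate dehydrogenase that yields 2-oxoglutarate, rose from 5.91, 6.66, 6.50 and 7.65 CPM to 12.98, 13.2, 13.4 and 13.6, with a log2 fold change of 0.98 ± 0.090 (adjusted p = 5.29e-05). D2HGDH, which clears the inhibitor D-2-hydroxyglutarate, rose by 0.89 ± 0.065 (adjusted p = 1.01e-05). Of 23 other 2-oxoglutarate dioxygenases tested, 6 were called higher, among them EGLN3 and P4HA1, a HIF prolyl hydroxylase and a collagen prolyl hydroxylase, at 1.92 ± 0.11 and 1.51 ± 0.073, and the collagen lysyl hydroxylases PLOD1 and PLOD2 at 0.93 ± 0.053 and 0.78 ± 0.049. Among the enzymes that place the marks, and the readers of m6A, none was called by edgeR's quasi-likelihood test, DESeq2 or limma-voom: of 37 such genes 3 were higher and 13 lower at an unadjusted p below 0.05. By the adjusted p alone, 1 of 20 histone lysine methyltransferases was higher and 4 lower, 1 of 8 m6A writers was higher and 3 lower, and 3 of 5 m6A readers were lower. The flavin-dependent demethylases KDM1A and KDM1B, which use oxygen but not 2-oxoglutarate, did not pass. All 8 hypoxia genes used as a check were called higher, CA9 most at 6.21 ± 0.22, then NDRG1 at 2.60 ± 0.084, ANKRD37 at 2.03 ± 0.10 and BNIP3 at 1.53 ± 0.065.

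To ask what loss of CCAR2 did in normoxia, CCAR2 KO cells were compared with the same 4 WT normoxia libraries. HR was the 1 member called higher, where 6.73% of 21410 genes were called higher and 2.94% lower. No member was called lower by edgeR's quasi-likelihood test, by DESeq2 or by limma-voom, and 4 were lower at an unadjusted p below 0.05. Below the limit on size, many members moved by small amounts. By the adjusted p alone 13 members, or 37.1%, were higher, where 14.9% of all genes were, and 3 members, or 8.57%, were lower, where 15.4% of all genes were. The median log2 fold change was 0.064 over the members and 0.0090 over all genes. The count of 13 was 7 without replicate 3 of WT normoxia and 8 without replicate 2, where 11.7% and 12.2% of all genes were higher. It was 9 when all 12 libraries shared one fit, where 12.6% of all genes were higher.

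HR was at 5.55, 6.67, 6.73 and 7.37 CPM in the knockout, against 2.03 to 2.75 in WT normoxia. Each knockout library exceeded each WT normoxia library. The log2 fold change was 1.52 ± 0.13, a 2.87-fold rise, with an adjusted p of 2.8e-06.

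The 13 higher members were histone demethylases and TET genes. The H3K4 demethylases KDM5B and KDM5C rose most after HR and TET2. KDM5C was at 150.2, 138, 146 and 159.9 CPM in WT normoxia and 193, 190.1, 208 and 199.6 in the knockout, without overlap, with a log2 fold change of 0.41 ± 0.049 (adjusted p = 5.9e-05). KDM5B was at 65.1, 62.3, 61.4 and 64.4 CPM and then 81.4, 76.4, 79.96 and 82.9, also without overlap, at 0.34 ± 0.040 (adjusted p = 4.79e-05). KDM5A did not pass at 0.17 ± 0.067. It was higher by the adjusted p with DESeq2 (0.0498), with the replicate number in the fit (0.0233) and without replicate 1 of WT normoxia (0.00944). Both H3K27 demethylases rose: KDM6A was at 21.7, 21.2, 21.1 and 19.7 CPM in the knockout with a log2 fold change of 0.25 ± 0.055, and KDM6B was at 26.7, 25.8, 25.9 and 27.2 with 0.31 ± 0.087. Their adjusted p-values were 0.00377 and 0.0186. KDM6B did not pass without replicate 4 of CCAR2 KO or without replicate 2 or 3 of WT normoxia.

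TET2, which oxidises 5-methylcytosine, was at 20.3, 16.3, 16.6 and 17.4 CPM in WT normoxia and 24.7, 23.5, 23.8 and 25.6 in the knockout. The 4 knockout libraries lay close together above all WT normoxia libraries. The log2 fold change of 0.47 ± 0.074 (adjusted p = 0.000443) lay just under the limit, and it was 0.54 without replicate 1 of WT normoxia, the highest of its group. TET3 rose by 0.26 ± 0.076 (adjusted p = 0.0212), and TET1 did not pass at 0.14 ± 0.17. TET3 did not pass with all 12 libraries in one fit (adjusted p = 0.126). Nor did TET3 pass without replicate 1 of CCAR2 KO or without replicate 2 or 3 of WT normoxia. The H3K9 and H3K36 demethylases that rose were KDM2A at 0.24 ± 0.048, KDM3B at 0.21 ± 0.055, JMJD1C at 0.21 ± 0.057 with overlapping groups, PHF8 at 0.22 ± 0.065, KDM4B at 0.24 ± 0.055 and KDM3A at 0.13 ± 0.043. KDM3A, the strongest of the hypoxia calls by p, thus stood at 60.3, 55.3, 55.4 and 57.8 CPM in the knockout, just above its WT normoxia range. KDM3A did not pass without replicate 1, 2 or 4 of CCAR2 KO or replicate 2, 3 or 4 of WT normoxia. Nor did it pass with all 12 libraries in one fit (adjusted p = 0.0808). PHF8 and JMJD1C did not pass in that fit either (0.0529 and 0.0622), nor without replicate 2 or 3 of WT normoxia. PHF8 also did not pass without replicate 3 of CCAR2 KO, and KDM3B did not pass without replicate 3 of WT normoxia.

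The 3 lower members were AlkB and JmjC relatives. ALKBH2, a repair enzyme of alkylated DNA, was at 13.3, 15.6, 16.1 and 15.05 CPM in WT normoxia and 12.1, 11.9, 13.2 and 10.98 in the knockout, just without overlap, with a log2 fold change of -0.32 ± 0.079 (adjusted p = 0.00909). ALKBH3, which acts on alkylated DNA and RNA, was lower at -0.18 ± 0.058 (0.0301), and JMJD6, at 32.6, 34.96, 33.1 and 32.6 CPM, stood at -0.22 ± 0.049 (0.00503). ALKBH3 did not pass without replicate 1 or 3 of CCAR2 KO, without replicate 2 or 3 of WT normoxia, or with upper-quartile scaling. The m6A erasers ALKBH5 and FTO did not pass, at 0.058 ± 0.042 and 0.054 ± 0.067. Nor did ALKBH4, ALKBH6 and ALKBH7, between -0.13 and -0.084, or JMJD4, KDM8, RIOX1 and RIOX2, between -0.12 and 0.037. ALKBH1 did not pass either, at -0.17 ± 0.061, though its groups did not overlap. It was lower by the adjusted p with DESeq2 (0.0268) and without replicate 1 of CCAR2 KO (0.0364). In all, 19 members did not pass, with log2 fold changes from -0.30 to 0.17.

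The direction of the knockout differences went with transcript length. Across the 35 members the log2 fold change and the length of the longest transcript had a Spearman's rho of 0.70 and a Pearson's r of 0.50 (on log2 length), beside 0.097 and 0.063 across 20988 genes; the members share libraries and are not independent, and no test was made. Of 21 members with a transcript of 5 kb or more, 13 were higher by the adjusted p, or 61.9%, beside 25.5% of 4435 genes of that length. Of the 11 members between 2 and 5 kb none was higher or lower, beside 17.0% and 18.9% of 9285 genes. Of 3 members under 2 kb, 2 were lower. With the trend of fold change on length taken out over all genes, an alternative chosen after seeing the data, TET2 stood at 0.39, KDM5C at 0.35, KDM5B at 0.26 and KDM6A at 0.19. In that alternative 12 of the 13 still passed the adjusted p, all but KDM3A at 0.049 (adjusted p = 0.363). Of the 3 lower members ALKBH2 and JMJD6 still passed, ALKBH3 did not at -0.14 (adjusted p = 0.0822), and RIOX2 now did at -0.13 (adjusted p = 0.0355). Single libraries of a group also deviated by length, as given above for 2 of them, and their part in this trend was not tested.

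In the genes around the members the knockout had other small shifts. Of the same 16 enzymes of 2-oxoglutarate and its competitors, none was called by edgeR's quasi-likelihood test, DESeq2 or limma-voom, 4 were higher and 8 lower at an unadjusted p below 0.05, and by the adjusted p alone 3 were higher and 8 lower. The lower ones included the succinate dehydrogenase subunit SDHD at -0.38 ± 0.043 and fumarase, FH, at -0.34 ± 0.049, whose substrates inhibit these dioxygenases when they build up. Both were chosen after their values were seen. IDH2 and D2HGDH did not pass, at 0.034 ± 0.096 and -0.018 ± 0.084. Of 20 histone methyltransferases 1 was called lower, SUV39H2, a writer of H3K9 trimethylation, at -0.52 ± 0.058 (adjusted p = 3.18e-05). Of 23 other 2-oxoglutarate dioxygenases 3 were called higher, namely EGLN3 at 0.61 ± 0.12, P4HA2 at 0.59 ± 0.072 and PLOD1 at 0.53 ± 0.047. Of the 8 hypoxia check genes, VEGFA was called higher and ADM lower.

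A direct comparison of CCAR2 KO normoxia with WT hypoxia asked where these groups differ for the members. The groups differ in both genotype and oxygen, so a difference between them cannot be assigned to either. In this comparison 3 members were called higher in the knockout, where 7.08% of 21158 genes were, and 1 was called lower, where 7.88% were. By the adjusted p alone 12 were higher and 7 lower, or 34.3% and 20%, beside 17.1% and 17.8% of all genes. Fold changes went with transcript length here too, with a Spearman's rho of 0.60 across the members and 0.16 across 20754 genes. Of the 21 members of 5 kb or more, 52.4% were higher and 14.3% lower, beside 33.3% and 15.1% of 4435 genes of that length. With the length trend removed, 10 members were higher and 7 lower, beside 17.5% and 18.1% of all genes. KDM3A was the member called lower, at -0.74 ± 0.057 (adjusted p = 2.4e-06), and the levels given above show no overlap. KDM4B at -0.48 ± 0.067, ALKBH5 at -0.41 ± 0.044 and JMJD6 at -0.43 ± 0.063 passed the adjusted p but not the limit on size. KDM4B was called with upper-quartile scaling, with the length trend removed and without replicate 2 of WT hypoxia (-0.53). Also lower by the adjusted p alone, without overlap, were ALKBH2 at -0.39 ± 0.080 (adjusted p = 0.00302), ALKBH6 at -0.21 ± 0.060 (0.0177) and ALKBH7 at -0.20 ± 0.067 (0.0379). Of the fits that left out 1 library, ALKBH7 passed only in that without replicate 2 of WT hypoxia. With the length trend removed ALKBH7 did not pass at -0.096, and KDM2B did at -0.14. ALKBH6 did not pass without replicate 2 or 4 of CCAR2 KO or replicate 3 of WT hypoxia. A gene on the same strand overlaps 25.1% of the ALKBH6 exons. HR did not pass, at 0.31 ± 0.16 (adjusted p = 0.172), and its groups overlapped, which does not show that its level was the same in both.

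The members called higher in the knockout than in hypoxia were TET2, TET3 and JMJD1C. TET2 was at 16.98, 11.3, 16.4 and 16.01 CPM in hypoxia, below every knockout library, and differed by 0.68 ± 0.11 (adjusted p = 0.00063). TET3 was at 26.95, 18.4, 29.3 and 27.2 CPM in hypoxia and 41.4, 36.9, 36.8 and 37.3 in the knockout, a difference of 0.57 ± 0.12 (adjusted p = 0.00309). JMJD1C was at 111, 102, 101 and 105 CPM in the knockout and differed by 0.51 ± 0.078 (adjusted p = 0.000408). Replicate 2 of WT hypoxia was the lowest of its group in all 3. Without it TET2 stood at 0.56 and kept its call, while TET3 at 0.45 and JMJD1C at 0.44 fell under the limit on size. JMJD1C also fell under it without replicate 4 of WT hypoxia (0.49), without replicate 1 of CCAR2 KO (0.48) and with upper-quartile scaling (0.48). With the length trend removed, TET3 at 0.43 and JMJD1C at 0.36 were not called either.

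KDM6A differed by 0.4996, a value that the limit of 0.5 just leaves out, with an adjusted p of 9.61e-05. DESeq2 called it at 0.51 and limma-voom at 0.50, so that both called 4 members higher. It was also called with RLE scaling, with all 12 libraries in one fit, and without replicate 4 of CCAR2 KO or replicate 1 or 3 of WT hypoxia. The other members that were higher by the adjusted p alone did not overlap between the groups. Of the H3K4 demethylases, KDM5A was higher by 0.32 ± 0.081 (adjusted p = 0.00919), KDM5B by 0.22 ± 0.060 (0.0123) and KDM5C by 0.28 ± 0.075 (0.0129). Of the H3K9 and H3K36 demethylases, KDM3B differed by 0.40 ± 0.068 (0.000859), KDM2A by 0.36 ± 0.075 (0.00294) and KDM4A by 0.23 ± 0.047 (0.00254). The PHD-finger relatives KDM7A and PHF8 differed by 0.33 ± 0.091 (0.0158) and 0.22 ± 0.075 (0.0442). With the length trend removed, KDM5B at 0.072, KDM7A at 0.17 and PHF8 at 0.13 did not pass the adjusted p. RIOX1 then did, at 0.19. PHF8 also did not pass when any 1 library of CCAR2 KO, or replicate 4 of WT hypoxia, was left out.

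Around the members, 3 of the 16 enzymes of 2-oxoglutarate and its competitors were called lower in the knockout than in hypoxia, IDH2 at -0.96 ± 0.078, D2HGDH at -0.92 ± 0.086 and GPT2, an alanine aminotransferase that yields 2-oxoglutarate, at -0.53 ± 0.051. Of the 23 other dioxygenases 5 were called lower, most of all P4HA1 at -1.35 ± 0.071, EGLN3 at -1.32 ± 0.10, the prolyl 3-hydroxylase P3H3 at -0.85 ± 0.075 and EGLN1 at -0.62 ± 0.050. RBM15, of the m6A writer complex, was the 1 of 8 writers called higher, at 0.51 ± 0.087. Of the 8 check genes 6 were called lower, with CA9 at -5.39 ± 0.26, NDRG1 at -2.24 ± 0.066, ANKRD37 at -2.15 ± 0.090 and BNIP3 at -1.82 ± 0.066.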

How the data were processed

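RNA of MDA-MB-231 cells was sequenced in 12 libraries, 4 a group, grouped by the sample labels. The authors aligned reads with HISAT2 and deposited 1 table of whole-number expected counts per gene. The study's methods name StringTie for quantification and the processing notes name featureCounts, so which tool made the table is not settled. The genome build and the use of strand are not given in the sources used here. The members and lists were chosen with earlier results of these data known.

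From these deposited expected counts, used as whole numbers, edgeR 4.0.16 (R 4.3.3) was fitted over all genes of the 2 groups compared with TMM scaling, filterByExpr and the quasi-likelihood test, and p-values were adjusted by Benjamini-Hochberg. A call needs an adjusted p below 0.05 with a log2 fold change of 0.5 or more in either direction. Standard errors are the absolute log2 fold change over the square root of F. All members are accounted for, and members called, or past the adjusted p with groups that do not overlap, are named with their values. From each other list the called genes are named, at most the 4 with the largest change. DESeq2 1.42.0 and limma-voom 3.58.1, other scalings, filters, limits, a replicate block and single libraries left out were alternatives, and so was removal of a length trend (lowess span 0.3), added after seeing the data. Positions and lengths come from GENCODE release 29 (GRCh38), matched by gene identifier for 58396 of 60664 genes. Scripts were tested on simulated data. Replicate numbers did not pair the libraries. No pair of libraries of a group agreed within sampling noise.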

Additional observations from a re-analysis of the deposited data

Results flagged for a closer look

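In 7 of 105 groups of 4 libraries (35 members in 3 groups), the highest or lowest library lay far from the other three, by Dixon's ratio of its gap to the group's range above its critical value at 95%. Chance flags about 5.25 of 105 groups. In WT hypoxia, replicate 2 was the lowest library for KDM5C at 136 CPM (ratio 0.837), for TET2 at 11.3 CPM (0.832) and for ALKBH7 at 25.4 CPM (0.873). In WT normoxia, replicate 1 was the highest for KDM3A at 54.5 CPM (0.916) and for KDM7A at 7.20 CPM (0.834). In CCAR2 KO, replicate 2 was the lowest for KDM2A at 193 CPM (0.914), and replicate 1 was the highest for TET3 at 41.4 CPM (0.906).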

How the results depend on the processing

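In hypoxia, the 3 members called higher became 5 with no limit on the fold change and 1 (HR) at a limit of 1, and stayed 3 with any 1 library left out. Members called lower went from 0 to 5 with no limit, and to between 0 and 1 with a library left out (KDM4D at -0.54 without replicate 2 of WT hypoxia). The median log2 fold change turned from -0.039 to 0.012 with upper-quartile scaling and -0.046 to -0.021 with a library left out. Called genes of the other lists went from 16 to 38 with no limit (15 to 16 with a library left out). By the adjusted p alone, leaving out a library gave 4 to 5 members higher and 3 to 7 lower, and upper-quartile scaling 1 lower. With a library left out, 8.75% to 13.1% of all genes were higher and 8.17% to 16.2% lower.

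In the knockout, the 1 member called higher became 13 with no limit and 1 to 2 with a library left out (TET2 without replicate 1 of WT normoxia); called lower went from 0 to 3 with no limit and was 0 throughout with a library left out. The median was 0.048 to 0.11, highest without replicate 1 of WT normoxia. Called genes of the other lists went from 6 to 43 with no limit (6 to 7). By the adjusted p alone, leaving out a library gave 7 to 14 members higher and 2 to 3 lower. In those fits 11.7% to 14.9% of all genes were higher and 12.6% to 15.3% lower.

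For the knockout against hypoxia, 3 members called higher became 1 with the length trend removed, 12 with no limit, 0 at a limit of 1 and 1 to 4 with a library left out (1 without replicate 2 of WT hypoxia). The 1 called lower became 2 with upper-quartile scaling or the length trend removed, 7 with no limit, 0 at a limit of 1 and 1 to 2 with a library left out. The median was 0.080 to 0.14. The median level per length was 7.02 with the longest transcript.

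The replicate numbers did not pair libraries: the correlations of same-numbered deviations were -0.0089 to 0.19 for hypoxia and -0.072 to 0.079 for the knockout. With a replicate block KDM3A stood at 0.85 and KDM4B at 0.70 in hypoxia and HR at 1.52 in the knockout, and no member's call changed. No called value changed sign. Members that changed sign, such as ALKBH4 in hypoxia (-0.013, and 0.039 with upper-quartile scaling), had not passed the adjusted p. Counts of 64 to 247 for KDM4D and 91 to 240 for TET1 limit what could be seen for them.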
